A study of Homo sapiens with 6 samples.

Results

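The genes described here encode the machinery with which a cell makes and takes up cholesterol and makes fatty acids. They form a list of 41 members, picked by gene symbol for their place in the pathway with earlier results of these data known, out of 60624 rows in the deposited table. The list falls into 3 groups: 5 genes of the SREBP system that switches the pathway on, 20 genes of the sterol arm and 16 genes of the fatty acid arm. All 41 were detected and passed the filter on low counts, the smallest count of any member in any library being 166. They were measured in A549 cells, an established human lung adenocarcinoma line, by sequencing of polyA RNA. One group holds 3 libraries of the parental line, and the other holds 3 libraries of A549 cells carrying a RAVER1 deletion made with CRISPR/Cas9, with no further treatment named for either group. RAVER1 is an RNA-binding protein known as a partner of the splicing repressor PTBP1. The comparison asks which steps of lipid synthesis have a different transcript level when RAVER1 is missing. All 3 knockout libraries are titled KO2, whether that is 1 clone is not stated, and the tests therefore cover the spread among libraries of that knockout alone.

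SREBPs are transcription factors made as precursors in the membrane of the endoplasmic reticulum. The escort protein SCAP carries them to the Golgi when sterols are scarce, and proteases there release the active factor, while INSIG proteins hold SCAP back when sterols are plentiful. The factor encoded by SREBF2 is best known for driving sterol genes and that encoded by SREBF1 for driving fatty acid genes. In the promoters of their targets, SREBPs are known to act together with NF-Y, a factor that binds CCAAT boxes. Lung alveolar cells use the fatty acid arm to build the lipids of surfactant, and A549 cells are often used as a model of that cell.

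The labels were checked on the deleted gene. RAVER1 fell from a parental mean of 69.7 CPM (the count scaled by the TMM-adjusted library size) to 2.73 CPM in the knockout (log2 fold change -4.67, SE 0.0786, edgeR adjusted p = 1.24e-18, n = 3 per group). Total counts ran from 29811747 to 39910127 per library. Of the lung alveolar markers, all 6 had a mean under 1 CPM in both groups, and their summed level was 0.954 to 1.26 CPM in parental and 0.828 to 0.955 CPM in knockout libraries, so the defining markers of alveolar cells were at or near 0. Markers of the NRF2-high state known for A549 summed to 14677 to 15012 CPM in parental and 13122 to 13875 CPM in knockout libraries. Epithelial markers moved with the groups: all 6 of 6 fell, from a summed 6614 to 7250 CPM to 3561 to 4118 CPM, and their part in the results below was not tested. Fibroblast markers summed to 46.4 to 49.7 CPM in parental and 63.7 to 67.6 CPM in knockout libraries, nearly all of it from COL1A1, with DCN at 0 counts throughout. Endothelial markers summed to at most 0.129 CPM in any library, and leukocyte markers to 3.92 to 5.78 CPM, nearly all of it from CD14. Chromosome 2 stood apart, with a median log2 fold change of 0.42 and 66.8% of its 1125 tested genes higher, and 2 members lie on it, INSIG2 and LPIN1.

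The promoter sequences of the members are shown first, since SREBPs and NF-Y are known to act there. RefSeq promoter windows on GRCh38.p14, 250 bases before to 50 after a gene's start, were found for 37 of the 41 members. SQLE, ACAT2, FDFT1 and FASN had no window. Each window was searched on both strands for 3 motifs, each counted on its own even where matches overlap: CCAAT, the core of an NF-Y site; TCACNCCAC, a form of the sterol regulatory element; and CACGTG, an E-box. CCAAT was in a window of 15 of 17 sterol arm genes (88.2%), 11 of 15 fatty acid arm genes (73.3%) and 2 of 5 SREBP system genes, against 39.7% of all 27305 genes with a window. That background includes genes not tested here, and no share over tested genes alone was computed. TCACNCCAC was in 1 member, SREBF2, against 1.39% of all genes, and CACGTG was in 5 of 37 members (13.5%), against 8.77% of all genes. Among sterol arm genes with a window, CCAAT was present in 2 of 2 that rose, 4 of 4 that fell and 9 of 11 that did not pass the test. SQLE and FDFT1, which rose, and ACAT2, which fell, could not be searched. The sequences below run 5′ to 3′ on the gene's strand up to the first transcribed base of the annotation, with the matches in capitals. A CCAAT box on the other strand reads as ATTGG. SREBF2 was chosen because it has the only match to TCACNCCAC among the member windows searched. Other forms of the sterol element were not searched for. INSIG1, SCD, SCD5 and MYLIP were chosen because they hold CCAAT and fell. MSMO1 was chosen because it holds 4 CCAAT boxes while its level did not pass the test. No gene that rose is printed, although FADS3, DHCR7 and ACACB rose and hold 2 CCAAT boxes in a window. SREBF1 fell and holds none in its window.
SREBF2: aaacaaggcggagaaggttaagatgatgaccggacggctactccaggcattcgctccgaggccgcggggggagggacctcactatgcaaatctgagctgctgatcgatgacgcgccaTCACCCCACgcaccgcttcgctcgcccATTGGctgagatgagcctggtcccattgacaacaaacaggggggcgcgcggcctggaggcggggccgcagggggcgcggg
INSIG1: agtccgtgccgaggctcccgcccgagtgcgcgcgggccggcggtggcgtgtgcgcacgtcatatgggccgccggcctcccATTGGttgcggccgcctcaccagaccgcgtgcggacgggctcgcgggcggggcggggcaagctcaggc
SCD: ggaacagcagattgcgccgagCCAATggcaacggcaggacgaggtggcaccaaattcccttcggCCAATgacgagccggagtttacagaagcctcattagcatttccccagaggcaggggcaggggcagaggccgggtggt
SCD5: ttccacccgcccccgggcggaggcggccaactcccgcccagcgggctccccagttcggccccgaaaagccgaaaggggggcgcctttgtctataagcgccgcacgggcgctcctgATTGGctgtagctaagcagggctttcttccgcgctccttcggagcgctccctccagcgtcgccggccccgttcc
MYLIP: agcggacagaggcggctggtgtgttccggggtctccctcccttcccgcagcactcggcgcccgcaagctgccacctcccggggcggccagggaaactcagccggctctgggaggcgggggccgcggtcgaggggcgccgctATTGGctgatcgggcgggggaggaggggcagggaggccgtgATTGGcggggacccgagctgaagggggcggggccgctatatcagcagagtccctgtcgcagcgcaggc
MSMO1: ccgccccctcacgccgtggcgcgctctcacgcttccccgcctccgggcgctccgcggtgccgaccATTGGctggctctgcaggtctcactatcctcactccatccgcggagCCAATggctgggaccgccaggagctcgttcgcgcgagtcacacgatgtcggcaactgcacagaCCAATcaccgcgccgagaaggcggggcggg
On the hg38 assembly, the SREBF2 stretch is chr22:41832855-41833078 on the plus strand. Counted from the RefSeq start, its TCACNCCAC match begins 133 bases before that start and its CCAAT box 106 bases before it. The stretch itself ends at position -27 from the RefSeq start. The INSIG1 stretch is chr7:155297628-155297775 on the plus strand and ends at position -103 from the RefSeq start. Its CCAAT box lies 170 bases before that start. A CACGTG 55 bases before the RefSeq start is outside the stretch shown, past the first GENCODE exon base. The SCD stretch is chr10:100346983-100347123 on the plus strand and holds 2 CCAAT boxes, and that of its paralogue SCD5 is chr4:82798858-82799046 on the minus strand and holds 1. The MYLIP stretch is chr6:16128836-16129085 on the plus strand, with 2 boxes. The MSMO1 stretch is chr4:165327419-165327622 on the plus strand and shows 3 of the 4 boxes of its window. A match of letters is a description of the sequence, and binding was not measured here.

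Across the whole list, 10 members rose, 14 fell and 17 did not pass the test (edgeR quasi-likelihood test, Benjamini-Hochberg adjusted p under 0.05 over 16652 genes). The 24 members that passed are 58.5% of the list, beside 41.4% of all genes tested (21.3% higher and 20.1% lower), and beside 47.7% of the genes whose mean level was at least that of the lowest member. The changes were small and went both ways: the median log2 fold change of the members was -0.01, against 0.00 over all genes, and the median size of a change was 0.17, against 0.19. At adjusted p under 0.01 the members past it were 18, beside 30.5% of all genes. At adjusted p under 0.05, SCD5 alone of the 41 members also passed a 2-fold change, beside 6.83% of all genes. The range of the 3 parental libraries did not overlap that of the 3 knockout libraries for 28 of 41 members, beside 50.2% of all genes tested. Upper-quartile scaling gave 7 members higher and 19 lower, in place of 10 and 14. The count of members that rose was 5 without parental replicate 3 and 6 without knockout replicate 3. Without the members on chromosome 2 it was 8.

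**Figure D1:**
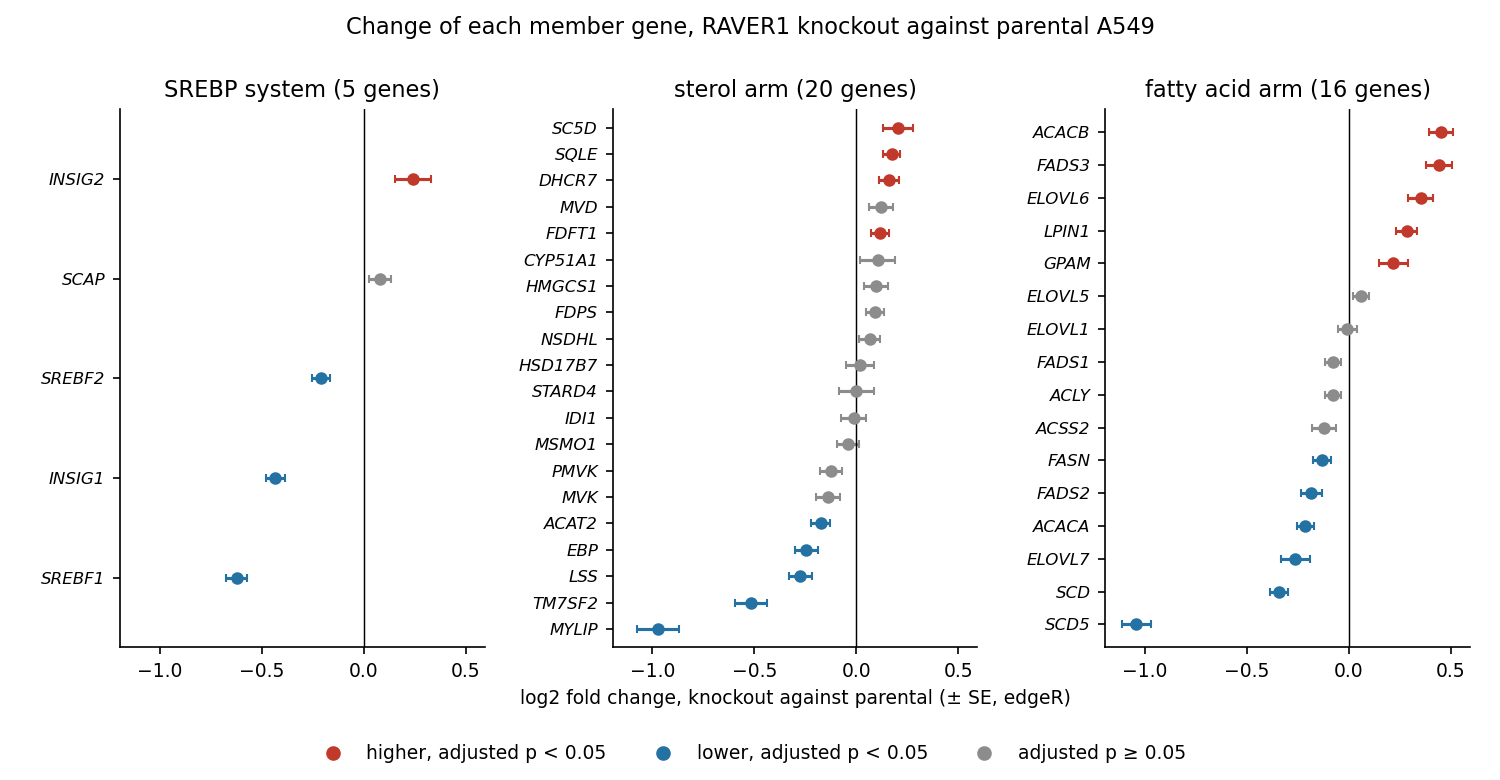
Log2 fold change of each of the 41 members, knockout against parental, with bars of 1 standard error from the edgeR fit (n = 3 per group), grouped as the SREBP system, the sterol arm and the fatty acid arm and coloured by the test. Genes that rose and genes that fell stand in all 3 groups, and SCD5 (-1.04) and MYLIP (-0.97) lie farthest from 0.

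Among the 5 genes of the SREBP system, 3 fell, 1 rose and 1 did not pass the test. Thus 80% passed, beside 41.4% of all genes tested (21.3% higher and 20.1% lower). Both factor genes and the feedback regulator INSIG1 fell. The summed level of the 5 was 845 to 885 CPM in parental and 625 to 692 CPM in knockout libraries, a decrease of 24.4% in the mean. SREBF1, whose product drives fatty acid genes, was at 472, 436 and 461 CPM in parental libraries 1, 2 and 3 and at 319, 275 and 296 CPM in knockout libraries 1, 2 and 3. Every knockout library lay well under the lowest parental one. Its mean went from 456 ± 18.6 to 296.5 ± 22.3 CPM (SD, n = 3), 65.0% of parental (log2 fold change -0.62, SE 0.0503, adjusted p = 9.08e-09). On the opposite strand, RAI1 overlaps 6.92% of the exon length of SREBF1.

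SREBF2, whose product drives sterol genes and whose own promoter holds the TCACNCCAC match printed above, changed less. It stood at 193, 185 and 183 CPM in the parental and 171, 154 and 160 CPM in the knockout libraries. The groups did not overlap, and the knockout mean was 86.4% of parental (log2 fold change -0.21, SE 0.0453, adjusted p = 0.00097). Per kilobase of deposited gene length, SREBF1 made up 69.1% of the summed level of both factors in parental and 62.7% in knockout libraries.

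INSIG1, which keeps SCAP in the endoplasmic reticulum and is itself an SREBP target, was at 121, 129 and 126 CPM in parental and 90.1, 94.0 and 94.2 CPM in knockout libraries. The groups lay far apart beside their spread, at 125 ± 4.06 and 92.8 ± 2.28 CPM (SD, n = 3; log2 fold change -0.43, SE 0.0446, adjusted p = 2.32e-07). INSIG1 lies on chromosome 7, whose median log2 fold change was -0.11, with 9.41% of its tested genes higher. Its paralogue INSIG2, which does the same task but is not known as an SREBP target, was at 7.53, 8.56 and 8.68 CPM in parental and 9.49, 10.3 and 9.41 CPM in knockout libraries. All knockout libraries lay above all parental ones, and the log2 fold change was 0.24 (SE 0.0888, adjusted p = 0.0363). INSIG2 lies on chromosome 2. Leaving out parental replicate 1 (0.18) or 3 (0.27) or knockout replicate 2 (0.20) or 3 (0.27) ended its call, as did upper-quartile scaling (0.21) and DESeq2. SCAP, the escort itself, was at 86.9 to 91.5 CPM in parental and 89.3 to 103 CPM in knockout libraries, which overlap (log2 fold change 0.08, SE 0.053, adjusted p = 0.254).

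**Figure D2:**
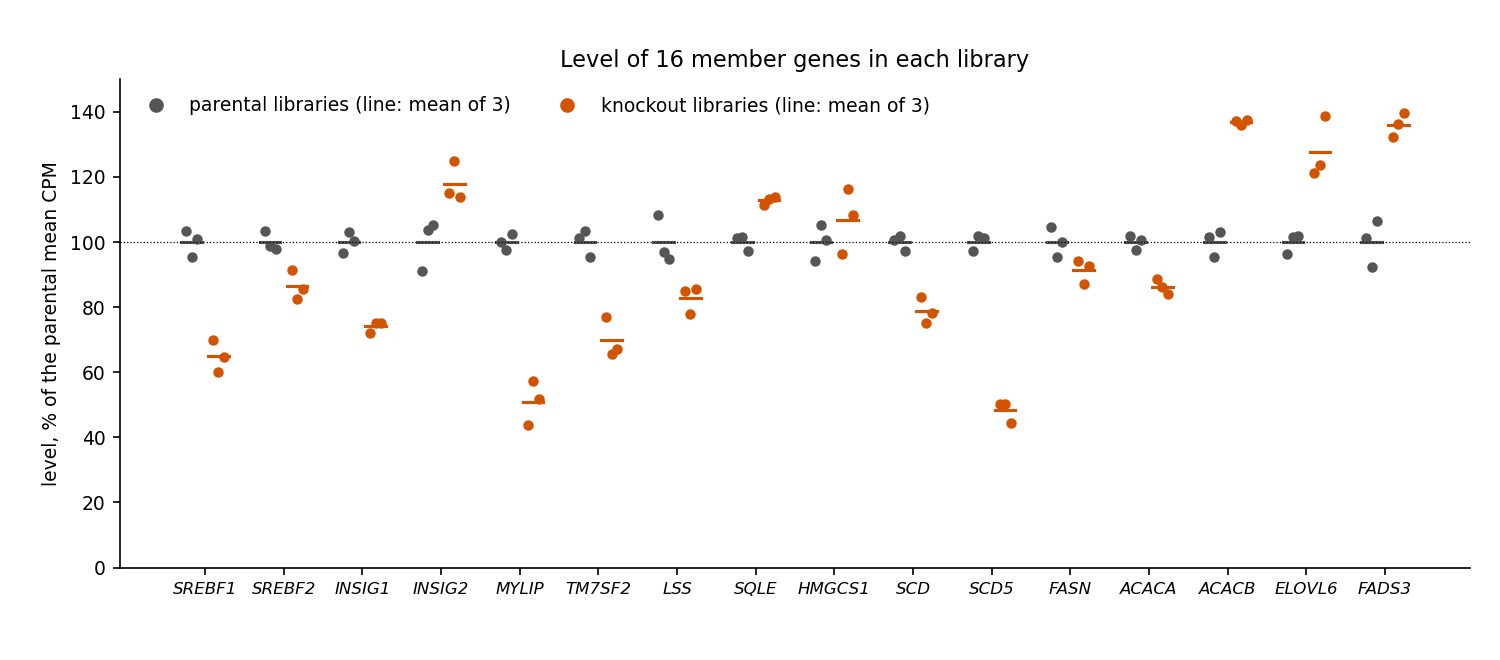
Level in each library of 16 members as a percentage of the gene's parental mean, with 3 points and a line at their mean for each group and a dotted line at 100%. The knockout points of SCD5 and MYLIP lie near 50%, those of SREBF1 near 65.0%, and those of ACACB and FADS3 above 130%.

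In the sterol arm 4 of 20 genes rose, 5 fell and 11 did not pass the test, so 45% passed, near the 41.4% of all genes tested. The median log2 fold change was 0.01 and the median size of a change 0.12. The summed level of the 20 genes was 1706 to 1781 CPM in parental and 1771 to 1837 CPM in knockout libraries, ranges that overlap, with means of 1744 and 1793 CPM. The 4 genes that rose all act from farnesyl diphosphate to cholesterol. Of the enzymes that fell, ACAT2 acts earlier, and LSS, EBP and TM7SF2 act in those same steps. The members farthest from the parental level were MYLIP and TM7SF2. The count of genes that rose was 2 when parental replicate 2 was left out, 1 for parental replicate 3 and 2 for knockout replicate 3.

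The early steps, from acetyl-CoA to farnesyl diphosphate, are covered by 7 members, of which 1 fell and 6 did not pass the test. Thus 14.3% passed, beside 41.4% of all genes tested. ACAT2, which joins acetyl-CoA units into acetoacetyl-CoA, was at 102, 94.8 and 94.2 CPM in parental and 88.9, 84.9 and 84.4 CPM in knockout libraries. The groups did not overlap (log2 fold change -0.17, SE 0.0477, adjusted p = 0.00657), but the call was lost without parental replicate 1 (-0.13). Genes on the opposite strand cover 52.3% of its exon length, and the strand setting of the counting is not given in the sources used here. HMGCS1, which makes HMG-CoA and is a common marker of SREBP activity, ran from 144 to 161 CPM in parental and from 147 to 178 CPM in knockout libraries, with wide overlap. Its log2 fold change was 0.10 (SE 0.0589, adjusted p = 0.211), and it passed the test without knockout replicate 1 (0.17).

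The kinases and the decarboxylase that follow did not pass either. The log2 fold change was -0.14 for MVK, which phosphorylates mevalonate (adjusted p = 0.0693), and -0.12 for PMVK, which adds the next phosphate (adjusted p = 0.0807). Both passed with upper-quartile scaling (-0.17 and -0.16) and when knockout replicate 1 was left out (-0.20 and -0.17). MVD, the decarboxylase that makes isopentenyl diphosphate, was at 0.12 (adjusted p = 0.106) and passed without parental replicate 1 (0.18). IDI1, the isomerase of isopentenyl diphosphate, was at -0.01 (adjusted p = 0.885), and FDPS, the farnesyl diphosphate synthase, at 0.09 (adjusted p = 0.114).

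From farnesyl diphosphate to cholesterol the list has 11 members, of which 4 rose, 3 fell and 4 did not pass the test. Thus 63.6% passed, beside 41.4% of all genes tested. SQLE, the squalene epoxidase and a controlled step of the arm, was at 159, 160 and 153 CPM in parental and 175, 178 and 179 CPM in knockout libraries. No overlap was seen, and the rise was small (log2 fold change 0.17, SE 0.0405, adjusted p = 0.00192). The enzyme that acts just after it moved the other way. LSS, which closes squalene epoxide into lanosterol, was at 91.9, 82.4 and 80.7 CPM in parental and 72.2, 66.1 and 72.8 CPM in knockout libraries (log2 fold change -0.27, SE 0.0564, adjusted p = 0.000659). The groups of LSS did not overlap.

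FDFT1, which makes squalene, was at 247, 241 and 235 CPM in parental and 278, 250.1 and 256 CPM in knockout libraries, without overlap. Its log2 fold change was 0.12 (SE 0.0447, adjusted p = 0.0456), and leaving out parental replicate 2 (0.12) or 3 (0.09) or knockout replicate 1 (0.07) or 3 (0.13) ended the call. RLE or upper-quartile scaling, no filter on low counts and DESeq2 also lost it. DHCR7, which makes cholesterol from its direct precursor, was at 252, 240.04 and 238 CPM in parental and 292, 256 and 268 CPM in knockout libraries. The lowest knockout library lay just above the highest parental one (log2 fold change 0.16, SE 0.048, adjusted p = 0.0118), and the call was lost without parental replicate 3 (0.14).

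SC5D, the desaturase that acts just before DHCR7, was at 15.1, 16.2 and 16.1 CPM in parental and 16.7, 19.6 and 18.2 CPM in knockout libraries, with no overlap (log2 fold change 0.20, SE 0.0744, adjusted p = 0.0348). Its call was lost without parental replicate 1 (0.17), 2 (0.22) or 3 (0.21), without knockout replicate 2 (0.15) or 3 (0.20), with upper-quartile scaling and in DESeq2. EBP, the sterol isomerase upstream of SC5D, was at 59.7, 56.0 and 54.4 CPM in parental and 49.9, 47.3 and 46.5 CPM in knockout libraries. All knockout libraries of EBP were lower (log2 fold change -0.24, SE 0.0541, adjusted p = 0.00125). On chromosome 11, where DHCR7, SC5D, TM7SF2 and the FADS genes lie, the median log2 fold change was 0.10 and 36.6% of tested genes were higher.

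TM7SF2, a sterol reductase of the step after lanosterol demethylation, had the largest fall among the enzymes of the arm that make sterols. It was at 17.2, 17.6 and 16.2 CPM in parental and 13.1, 11.2 and 11.4 CPM in knockout libraries. All knockout libraries lay lower, and their mean was 69.9% of parental (log2 fold change -0.51, SE 0.0784, adjusted p = 2.94e-05). LBR, which carries the same reductase activity in the nuclear envelope and was not a member, fell by 0.41 on the log2 scale (152 to 115 CPM, adjusted p = 1.27e-06).

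The other 4 enzymes of these steps did not pass the test. MSMO1, the methyl sterol oxidase whose promoter holds 4 CCAAT boxes, was at -0.04 on the log2 scale (adjusted p = 0.585). NSDHL, which removes the oxidised methyl group, was at 0.06 (adjusted p = 0.35), and HSD17B7, a reductase of the same complex, at 0.02 (adjusted p = 0.869). CYP51A1, the lanosterol demethylase, was at 0.10 (adjusted p = 0.371), but 79.4% of its exon length is shared with another gene model on the same strand, so its value is uncertain.

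The arm has 2 members that handle sterols and make none. MYLIP encodes the ubiquitin ligase also called IDOL, which sends lipoprotein receptors for degradation and is induced by the sterol-sensing LXR factors. It was at 10.3, 10.1 and 10.6 CPM in parental and 4.53, 5.93 and 5.35 CPM in knockout libraries. Every knockout library was far under every parental one, with a mean 51.0% of parental (log2 fold change -0.97, SE 0.101, adjusted p = 2.74e-07). STARD4, a carrier of cholesterol between membranes, had a log2 fold change of 0.00 (adjusted p = 0.999).

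The fatty acid arm had 5 genes that rose, 6 that fell and 5 that did not pass the test, so 68.8% passed, beside 41.4% of all genes tested. Its median log2 fold change was -0.08 and the median size of a change 0.22, and 15 of 16 genes had groups that did not overlap, beside 50.2% of all genes tested. By summed level the arm fell: 8000 to 8263 CPM in parental and 6885 to 7480 CPM in knockout libraries, a mean 11.8% lower. SCD, the most abundant member per kilobase of the whole list, carried much of that sum. Without SCD the summed level was 5273 to 5468 CPM in parental and 4803 to 5170 CPM in knockout libraries, a mean 6.92% lower.

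**Figure D3:**
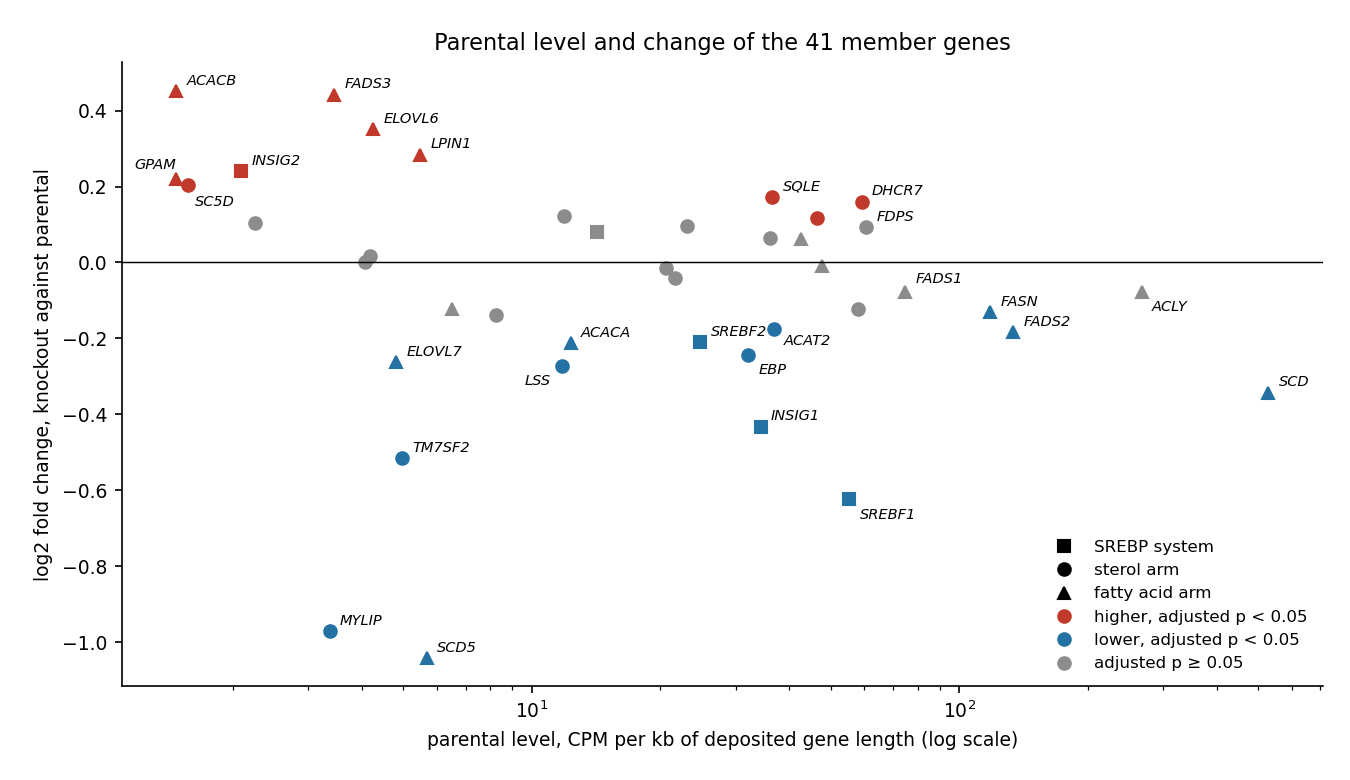
Parental level of each member, in CPM per kilobase of deposited gene length on a log scale, against its log2 fold change in the knockout, with the shape marking the SREBP system, the sterol arm and the fatty acid arm and the colour the test. The 4 fatty acid genes of highest level, SCD, ACLY, FADS2 and FASN, lie below 0, while the 5 fatty acid genes that rose lie at the low end of the level axis.

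The 5 members that take carbon from citrate and acetate to palmitate were split. ACLY, which makes cytosolic acetyl-CoA from citrate, was at 1426, 1359 and 1393 CPM in parental and 1348, 1295 and 1317 CPM in knockout libraries. The groups did not overlap, but the difference did not pass the test (log2 fold change -0.08, adjusted p = 0.124). Upper-quartile scaling, or leaving out knockout replicate 1 (-0.09), brought it past the threshold. ACSS2, which makes acetyl-CoA from acetate, was at -0.12 (adjusted p = 0.11) and passed under the same changes (-0.17 without knockout replicate 1).

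Acetyl-CoA carboxylase makes malonyl-CoA and has a pair of genes. ACACA, whose cytosolic product feeds synthesis, was at 163, 157 and 162 CPM in parental and 142, 138 and 135 CPM in knockout libraries. The groups were well apart (log2 fold change -0.21, SE 0.0418, adjusted p = 0.00041). ACACB, whose product at the mitochondrial surface is known for restraining fatty acid import, was at 21.7, 20.4 and 22.0 CPM in parental and 29.3, 29.03 and 29.4 CPM in knockout libraries. It rose in every knockout library, to 137% of parental (log2 fold change 0.45, SE 0.0601, adjusted p = 5.93e-06).

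FASN, the synthase that builds palmitate, was at 1151, 1050.1 and 1100.2 CPM in parental and 1038, 960.2 and 1018 CPM in knockout libraries. The highest knockout library came close to the lowest parental one (log2 fold change -0.13, SE 0.044, adjusted p = 0.0234). Leaving out parental replicate 1 (-0.10) or 3 (-0.14) or knockout replicate 2 (-0.10) or 3 (-0.14) ended its call.

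Stearoyl-CoA desaturases place the first unsaturated bond in a saturated fatty acid, and both of them fell. SCD was at 2795, 2829 and 2700 CPM in parental and 2310, 2082 and 2172 CPM in knockout libraries. No knockout library came near the parental range, and the mean was 78.9% of parental (log2 fold change -0.34, SE 0.0437, adjusted p = 3.58e-06). SCD5, its far less abundant paralogue, was at 23.3, 24.4 and 24.3 CPM in parental and 12.1, 12.1 and 10.7 CPM in knockout libraries. It had the largest fall of all 41 members, to 48.4% of parental (log2 fold change -1.04, SE 0.0709, adjusted p = 8.1e-10). SCD5 made up 1.06% of the summed level of both per kilobase in parental and 0.655% in knockout libraries.

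The FADS desaturases add further unsaturated bonds to polyunsaturated fatty acids. FADS2, the entry step, was at 1454, 1420 and 1365 CPM in parental and 1364, 1149 and 1220 CPM in knockout libraries. The ranges met without overlapping (log2 fold change -0.18, SE 0.0521, adjusted p = 0.00841), and the call was lost without knockout replicate 2 (-0.13). FADS1, which acts later in the same chain, was at 759.9 to 771 CPM in parental and 718 to 736 CPM in knockout libraries. Its log2 fold change was -0.08 (adjusted p = 0.108), and it passed the test with upper-quartile scaling. FADS3, a sphingoid base desaturase beside them in the genome, rose from 21.9, 20.01 and 23.1 CPM in parental to 28.7, 29.5 and 30.3 CPM in knockout libraries (log2 fold change 0.44, SE 0.0649, adjusted p = 1.93e-05). The groups of FADS3 did not overlap. Per kilobase, FADS3 went from 2.51% to 3.84% of the summed level of FADS2 and FADS3.

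Of 4 elongases, which lengthen fatty acids past palmitate, 1 rose, 1 fell and 2 did not pass the test. Thus 50% passed, beside 41.4% of all genes tested. ELOVL6, which takes palmitate to stearate, was at 29.9, 31.5 and 31.6 CPM in parental and 37.5, 38.4 and 42.9 CPM in knockout libraries. All knockout libraries were higher (log2 fold change 0.35, SE 0.062, adjusted p = 0.000143). ELOVL7, which acts on saturated acyl chains, was at 21.6, 20.6 and 22.3 CPM in parental and 16.4, 19.1 and 18.3 CPM in knockout libraries, all lower (log2 fold change -0.26, SE 0.0707, adjusted p = 0.00579). ELOVL1, an elongase of very long chains, was at -0.01 (adjusted p = 0.91), and ELOVL5, which lengthens polyunsaturated chains, at 0.06 (adjusted p = 0.253).

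Both members that pass fatty acids on to glycerolipids rose. LPIN1, a phosphatidate phosphatase on the way to triglyceride, was at 62.3, 68.2 and 64.6 CPM in parental and 75.1, 82.1 and 80.3 CPM in knockout libraries. All knockout libraries lay higher (log2 fold change 0.28, SE 0.0517, adjusted p = 0.0002), and LPIN1 lies on chromosome 2. GPAM, the mitochondrial acyltransferase that starts glycerolipid synthesis, was at 13.9, 14.9 and 14.5 CPM in parental and 16.9, 16.4 and 17.1 CPM in knockout libraries. The groups did not overlap (log2 fold change 0.22, SE 0.069, adjusted p = 0.0161), but leaving out parental replicate 1 (0.19) or 3 (0.21) or knockout replicate 3 (0.21) ended the call.

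**Figure D4:**
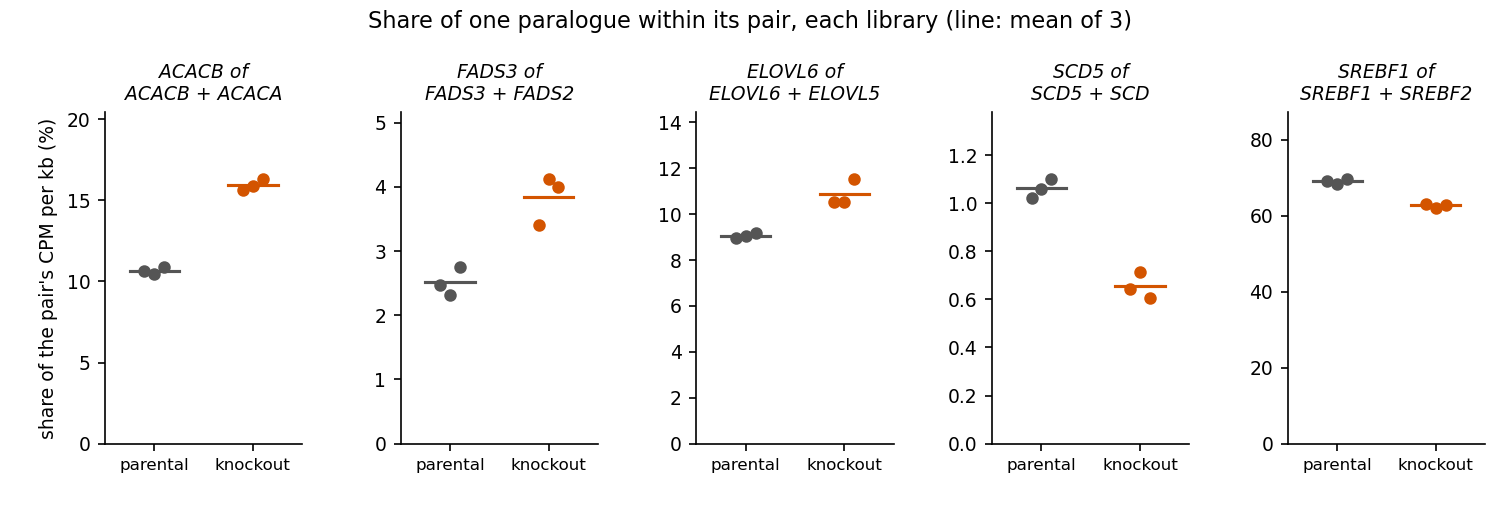
Share of 1 gene in the summed level per kilobase of a pair, for 5 pairs of paralogues, in each of the 3 parental and 3 knockout libraries, with lines at the means. The share of ACACB in the carboxylase pair went from a mean of 10.7% to 15.9%, and that of SCD5 in the SCD pair from 1.06% to 0.655%.

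Per kilobase of deposited gene length, the parental levels of the members spanned a wide range. SCD led with 529 CPM per kilobase, ahead of ACLY with 267, FADS2 with 134, FASN with 118 and FADS1 with 74.8. FDPS, at 60.7 CPM per kilobase, was the most abundant sterol arm gene. The lowest members were ACACB and GPAM, both at 1.47 CPM per kilobase. The share of ELOVL6 in the summed level of ELOVL5 and ELOVL6 per kilobase went from 9.05% to 10.9%.

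Genes outside the 41 that work beside this pathway were taken from 5 further lists, to which the same background of 41.4% applies. Of 12 tested genes that process or degrade SREBP system proteins, 2 rose and 1 fell. AUP1, which recruits a ubiquitin-conjugating enzyme to proteins of the endoplasmic reticulum, rose from 188 to 257 CPM (log2 fold change 0.45, adjusted p = 1.06e-07) and lies on chromosome 2. The paired erlins, which scaffold sterol-regulated degradation, moved apart, with ERLIN1 at 0.25 (adjusted p = 0.000125) and ERLIN2 at -0.30 (adjusted p = 0.000183). Of 9 tested other sterol and isoprenoid genes, 2 rose and 3 fell. Besides LBR, TMEM97, a sterol-binding protein, fell by 0.28 (adjusted p = 3.22e-05). NUS1, of dolichol synthesis, was at 0.22 and CYB5R3, an electron donor of sterol enzymes, at 0.17, and both calls were lost without parental replicate 3 (0.19 and 0.14).

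Sterol transport, storage and LXR genes gave 2 that rose and 3 that fell of 14 tested. GRAMD1B, which carries plasma membrane cholesterol to the endoplasmic reticulum, fell from 138 to 89.7 CPM (log2 fold change -0.62, adjusted p = 1.1e-08). ABCG1, a sterol exporter, went from 5.35 to 2.47 CPM (log2 fold change -1.11, SE 0.123, adjusted p = 6.37e-07). LPCAT3, which remodels phospholipids, fell from 90.4 to 71.6 CPM (log2 fold change -0.33, adjusted p = 7.28e-05). Of the 14, 9 did not pass. Among these were SMPDL3A at 0.07 (adjusted p = 0.797) and the LXR genes NR1H2 at 0.00 (adjusted p = 0.981) and NR1H3 at -0.03 (adjusted p = 0.818). SMPDL3A, NR1H2 and NR1H3 were chosen for naming after their values were seen. CYP7B1, an oxysterol hydroxylase, rose from 0.766 to 2.07 CPM (log2 fold change 1.44, adjusted p = 1.11e-05).

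Among 35 tested other fatty acid and triglyceride genes, 10 rose and 10 fell, with a median log2 fold change of -0.01. DGAT2, which makes triglyceride from newly made fatty acids, rose from 3.39 to 9.03 CPM (log2 fold change 1.41, adjusted p = 2.18e-09). AGPAT2, an acyltransferase between GPAM and LPIN1 in the same route, fell from 125 to 83.6 CPM (log2 fold change -0.58, adjusted p = 1.16e-08). CYB5A, the electron carrier of desaturases, rose by 0.60 and LPIN2, a paralogue of LPIN1, by 0.49. ACSL5, an acyl-CoA synthetase named here after its value was seen, had 16, 21 and 16 counts in parental and 0, 2 and 2 counts in knockout libraries (log2 fold change -3.77, adjusted p = 1.5e-05).

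**Figure D5:**
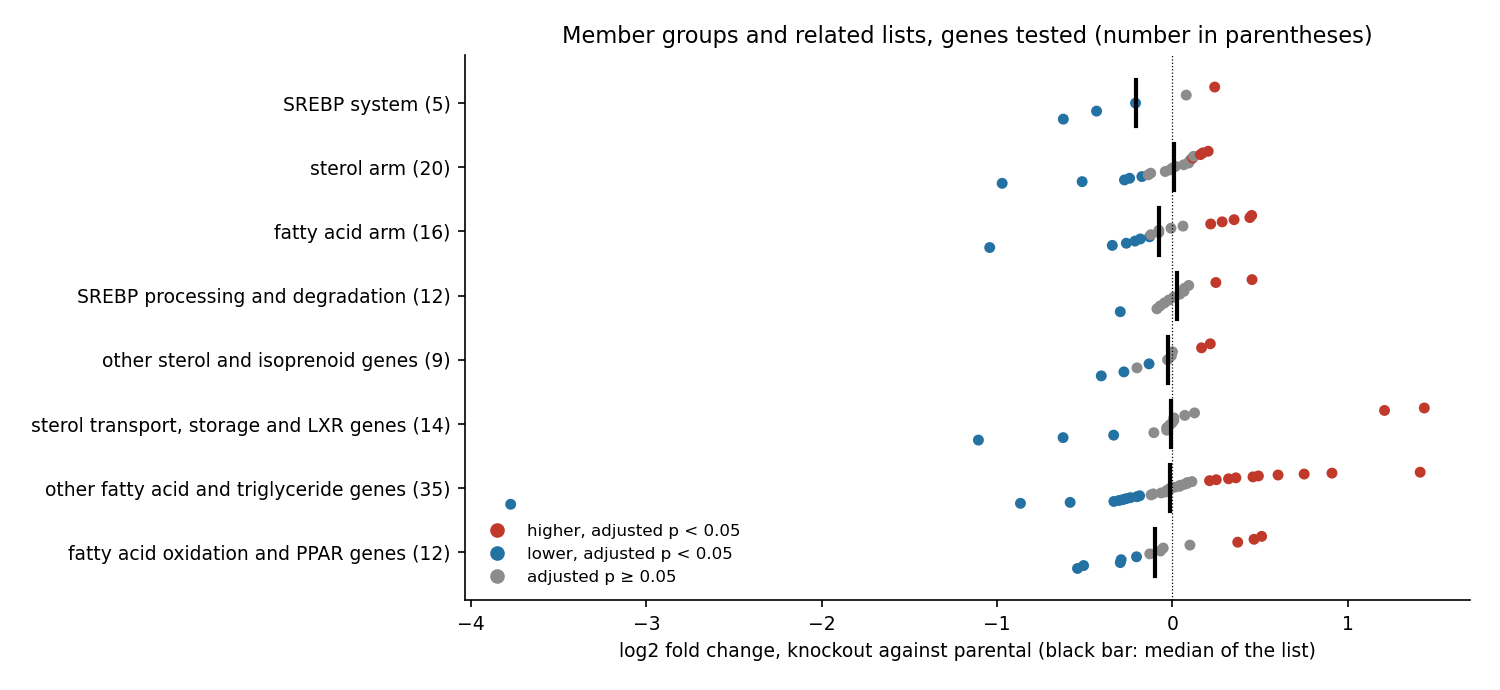
Log2 fold change of each tested gene in the 3 member groups and the 5 further lists, with 1 point per gene coloured by the test and a line at each list's median. Every list holds genes on both sides of 0, the point far to the left is ACSL5 (-3.77), and the medians lie between -0.21 for the SREBP system and 0.02 for SREBP processing genes.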

How the data were processed

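PolyA RNA of 6 A549 libraries, 3 parental and 3 RAVER1 knockout, was measured. The submitters' processing notes name cutadapt 2.8, HISAT2 2.1.0 with hg38, SAMtools 1.10 and featureCounts 2.0.0. As deposited, values are raw counts per gene. The kit is stranded, per the labels' protocols; how the counting used strand and which annotation it used were not given in the sources used here, so overlapping genes are uncertain. The test used edgeR 4.0.16 under R 4.3.3 (filterByExpr, TMM factors, quasi-likelihood F-test, knockout against parental, no covariate), with Benjamini-Hochberg adjustment over 16652 genes; the script was tested on simulated data. CPM uses TMM-scaled library sizes, and levels per kilobase use the deposited gene length, within 10% of GENCODE 29 exon length for 92.1% of 58437 genes. Overlaps come from GENCODE 29. The members and lists were chosen with earlier results of these data known. Named genes were all members, RAVER1 and up to 4 genes per further list with the smallest adjusted p. Replicates within a group differed by more than sampling noise (chi-square per degree of freedom 2.41 to 8.86), and none was merged. Alternatives included other scalings and filters, DESeq2 1.42.0, limma-voom (limma 3.58.1), a replicate block and leaving out each library.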

Additional observations from a re-analysis of the deposited data

How the results depend on the processing

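Of 24 members past the threshold, 16 kept their call under each of 14 alternatives, 8 lost it under at least 1, and none changed sign. Of 17 members not past it, 8 passed under at least 1 alternative and 5 changed sign, all of them close to 0; the cause was not tested. Without 1 library, the log2 fold change ran from -0.091 to 0.056 for IDI1, from -0.088 to 0.0022 for MSMO1, from -0.038 to 0.057 for HSD17B7, from -0.088 to 0.10 for STARD4 and from -0.047 to 0.019 for ELOVL1. HSD17B7 was at -0.015 with upper-quartile scaling, and ELOVL1 at 0.0031 with TMM factors computed without chromosome 2. STARD4 was at -0.0037 with RLE scaling, -0.033 with upper-quartile scaling, -0.00077 with the 1 CPM filter, -0.0042 with the replicate block, -0.0040 in DESeq2 and -0.0046 in limma-voom.

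Members that rose numbered 10, but 5 at adjusted p under 0.01 and 5 to 10 without 1 library. In the SREBP system the 1 rise, of INSIG2, was lost (0 higher) with upper-quartile scaling, in DESeq2 and at adjusted p under 0.01, and the count was 0 to 1 without 1 library; at an unadjusted p under 0.05 it was 1 in edgeR. Sterol arm genes that rose numbered 4, but 2 with upper-quartile scaling, 2 in DESeq2, 1 at adjusted p under 0.01, 7 with the replicate block and 1 to 4 without 1 library. The sterol arm median was -0.0241 with upper-quartile scaling and -0.021 to 0.034 without 1 library, and the fatty acid arm median was -0.11 with upper-quartile scaling. Same-numbered libraries were not shown to be pairs (correlations of 0.0142 to 0.129), and the replicate block gave 13 members higher and 19 lower. The lowest count of any member was 166; whether depth limits the calls of members with few counts was not tested.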

Other observations

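Fatty acid oxidation, the route that runs against the synthesis described above, was also read from a list chosen by function. Of 12 tested genes, 3 rose and 5 fell, with a median log2 fold change of -0.10. Thus 66.7% passed, beside 41.4% of all genes tested. CPT1A, which loads fatty acids onto carnitine and is the step that malonyl-CoA inhibits, rose from 70.5 to 97.3 CPM (log2 fold change 0.47, adjusted p = 2.51e-07). CPT2, its partner on the inner mitochondrial membrane, fell by 0.54 (adjusted p = 6.44e-06). HADHA and HADHB, the subunits of the trifunctional protein of oxidation, rose by 0.51 and 0.37, and both lie on chromosome 2.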
